A study of Mus musculus with 6 samples.

Results

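Myc and the nucleolar genes of ribosome biogenesis were described in B16F10.9 cells, a pigmented melanoma line from C57BL/6 mice, in the absence and presence of interferon-gamma (IFN-gamma). The set held 37 protein-coding genes, Myc and 36 genes of nucleolar proteins chosen by name for their known roles, among 39179 genes in the authors' deposited table. Earlier results of these data were known when the set and the further lists were chosen. RNA was sequenced from 3 libraries of untreated cells and 3 libraries of cells exposed to carrier-free recombinant murine IFN-gamma for 24 h (50 µg/ml, as labelled). This dose is high for cultured cells, and its unit may be an error in the label. Cells of both groups had been seeded in triplicate, and whether the libraries of a group come from separate cultures is not stated, so the spread behind the tests may be technical. Levels are in FPKM, a unit that divides fragments by the length of the transcript and by library size, and the table holds the authors' value for each group and no value per library. No SD, n or error could therefore be given for any level below, and the depth of the libraries is unknown. The words rose and fell are used where the authors' deposited table gives a q-value, a p adjusted over all tested genes, under 0.05.

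Ribosomes are built in the nucleolus. RNA polymerase I transcribes a long precursor RNA, small nucleolar ribonucleoproteins (snoRNPs) modify it, and a large cast of assembly factors folds it, cuts it and joins it to ribosomal proteins to give a small (40S) and a large (60S) subunit. The transcription factor Myc, a driver of cell growth, is known to bind many of these genes and to raise their transcription in dividing cells, tumour cells included.

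After IFN-gamma Myc fell 1.51-fold, and the nucleolar genes parted in both directions. Over all 37 genes 13 fell, 8 rose and 16 were not called, beside 20.9% of all 17021 tested genes that fell and 23.4% that rose. The falls were 35.1% and the rises 21.6% of the set, and whether these shares differ from the background was not tested. The median untreated level was 46.7 FPKM in the set and 5.57 FPKM over all tested genes. Among the 11425 tested genes of at least 1 FPKM in both groups, a level that every gene of the set exceeded, 26.2% fell and 28.0% rose. The shares of all tested genes repeated below include genes under 1 FPKM. The median log2 ratio of IFN-gamma over untreated was -0.040 for the set and 0.036 for all tested genes. By role, most small subunit factors that changed rose, most large subunit factors that changed fell, and RNA polymerase I genes went both ways. These roles hold 7, 12 and 6 genes, their values shift with transcript length (below), and whether they differ was not tested. Changes were mostly modest: 3 of the falls and 1 of the rises reached 2-fold. With calls that also needed a change of at least 1.5-fold, 8 genes fell and 3 rose, beside 15.6% and 17.7% of all tested genes. With q under 0.01, 11 fell and 7 rose, beside 17.2% and 19.5%. The summed FPKM of the set was 2846 in untreated cells and 2316 after IFN-gamma.

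**Figure D1:**
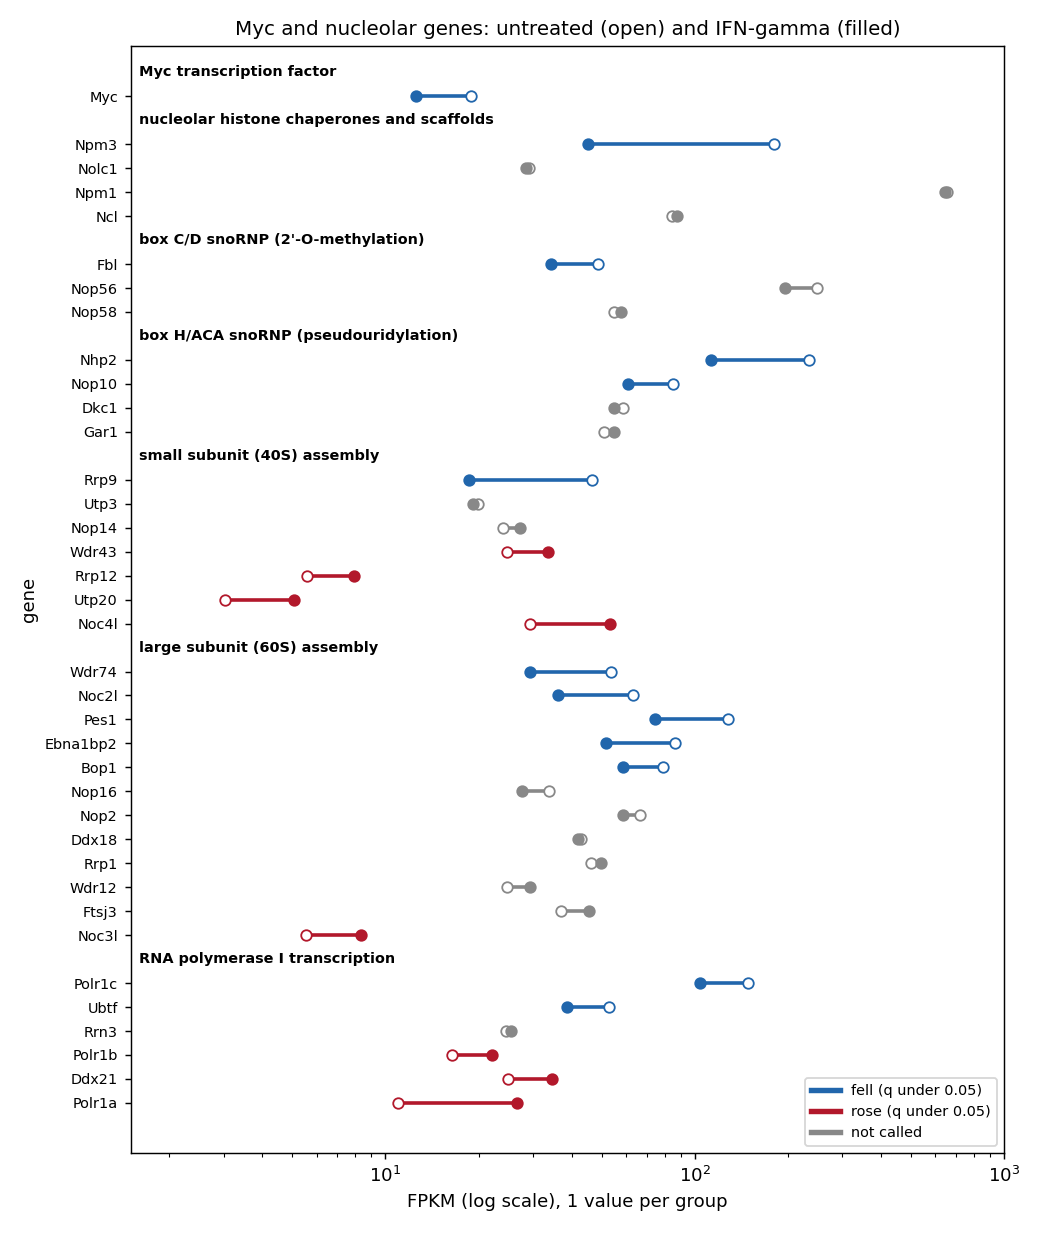
FPKM of Myc and the 36 nucleolar genes (log axis, the authors' value for each group) in untreated cells (open circles) and after IFN-gamma (filled circles), ordered by role and coloured by the authors' test. Npm3 shows the widest gap to the left, from 181 to 45.2 FPKM, and Polr1a the widest to the right, from 11.01 to 26.6 FPKM.

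Myc went from 18.9 FPKM untreated to 12.6 FPKM with IFN-gamma, a log2 ratio of -0.59 (q = 0.000187 in the authors' deposited table). The gene, on chromosome 15 (61985391 to 61990374, plus strand, GRCm38), shares its locus with no other gene in the table. The other Myc family genes were near 0: Mycn was listed at 0.00326 and 0.00844 FPKM and Mycl at 0.0131 and 0.0191 FPKM. Mlxipl, a more distant relative, was listed at 0.0212 and 0.0211 FPKM, and none of these genes was tested. Myc acts as a dimer with Max, for which Mxd proteins, Mnt and Mga compete as antagonists. Max rose from 33.4 to 62.9 FPKM, as did the antagonist genes Mnt from 5.79 to 13.8 FPKM, Mga from 2.58 to 5.64 FPKM and Mxd1 from 4.18 to 6.52 FPKM. The antagonist gene Mxd3 went the other way, from 101 to 19.4 FPKM, a 5.19-fold fall. Zbtb17, which encodes the Myc partner Miz-1, fell from 52.3 to 21.4 FPKM. Of the remaining network genes Mlx fell from 97.2 to 70.6 FPKM, Mlxip rose from 4.61 to 13.5 FPKM, and Mxd4 (40.6 and 46.4 FPKM) and Mxi1 (5.85 and 5.17 FPKM) were not called. In all 5 of 10 tested genes of this network rose, 3 fell and 2 were not called, beside 23.4% of tested genes that rose and 20.9% that fell. Their median log2 ratio was 0.42, and 0.25 relative to tested genes of like transcript length (below). Relative to such genes Mlxip went from 1.56 to 0.98, Mnt from 1.25 to 1.03 and Mga from 1.13 to 0.55. Mxd1 went from 0.64 to 0.42 and Max from 0.91 to 1.14.

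Myc and Max bind the E-box, whose preferred letters are CACGTG. The 250 bases before and 50 bases after the transcription start were searched for these letters, which read the same on both strands, in RefSeq promoter windows (GRCm38.p6). Windows were matched for 32 of the 37 genes by symbol, and not for Bop1, Fbl, Myc, Npm1 and Rrp12. CACGTG was present in 5 of the 32 genes (15.6%), beside 11.5% of tested genes with a window and 8.09% of all genes with one. The 5 genes did not share a direction: Pes1 fell, Utp20 and Wdr43 rose, and Nop2 and Rrn3 were not called. Such matches are letters in a window and say nothing of binding in these cells. The windows of Pes1, Nop2, Rrn3 and Wdr43 are shown from 220 bases before to 30 bases after the start because this stretch holds CACGTG, given in capitals. Utp20 is not shown, since the number printed was limited and it came last, with falls placed first and then by increasing log2 ratio. Its match begins at base 38 of the transcript, beyond that stretch. Those of Npm3 and Polr1a, chosen after their values were seen, are shown because these genes had the largest fall and the largest rise of the set.
Pes1, chr11:3963755-3964004, plus strand: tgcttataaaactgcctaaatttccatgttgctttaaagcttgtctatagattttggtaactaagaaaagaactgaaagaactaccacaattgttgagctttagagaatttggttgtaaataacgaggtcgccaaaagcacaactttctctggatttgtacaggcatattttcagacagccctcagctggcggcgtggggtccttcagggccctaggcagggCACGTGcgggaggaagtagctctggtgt
Nop2, chr6:125131663-125131912, plus strand: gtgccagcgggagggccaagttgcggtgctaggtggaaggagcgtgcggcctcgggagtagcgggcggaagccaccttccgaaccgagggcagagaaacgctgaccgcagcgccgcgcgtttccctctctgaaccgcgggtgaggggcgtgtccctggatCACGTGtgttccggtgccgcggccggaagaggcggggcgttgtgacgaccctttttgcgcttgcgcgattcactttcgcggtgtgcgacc
Rrn3, chr16:13780479-13780728, plus strand: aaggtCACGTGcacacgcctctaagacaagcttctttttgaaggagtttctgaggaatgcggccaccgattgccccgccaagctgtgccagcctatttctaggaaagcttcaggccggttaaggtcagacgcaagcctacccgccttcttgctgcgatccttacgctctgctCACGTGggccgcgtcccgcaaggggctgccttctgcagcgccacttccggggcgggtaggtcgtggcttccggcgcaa
Wdr43, chr17:71615995-71616244, plus strand: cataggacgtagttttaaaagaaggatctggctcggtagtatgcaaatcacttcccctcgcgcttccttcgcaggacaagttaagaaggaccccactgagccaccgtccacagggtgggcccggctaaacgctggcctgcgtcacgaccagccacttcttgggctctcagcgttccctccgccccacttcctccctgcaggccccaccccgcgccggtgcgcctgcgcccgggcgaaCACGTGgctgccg
Npm3, chr19:45749536-45749785, minus strand: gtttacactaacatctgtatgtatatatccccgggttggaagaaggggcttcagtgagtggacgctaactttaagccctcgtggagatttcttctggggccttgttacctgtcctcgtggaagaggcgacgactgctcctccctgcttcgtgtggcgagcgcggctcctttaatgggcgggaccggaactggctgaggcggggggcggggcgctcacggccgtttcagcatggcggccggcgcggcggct
Polr1a, chr6:71908833-71909082, plus strand: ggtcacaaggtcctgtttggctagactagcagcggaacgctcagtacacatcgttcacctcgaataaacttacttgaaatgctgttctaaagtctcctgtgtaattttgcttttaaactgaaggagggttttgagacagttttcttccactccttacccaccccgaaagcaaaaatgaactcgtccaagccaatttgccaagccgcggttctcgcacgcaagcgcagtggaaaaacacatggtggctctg
In Pes1 the E-box began 3 bases into the transcript and in Wdr43 18 bases into it. Counted from the start, it began at base -60 in Nop2, and Rrn3 held a pair beginning at -215 and -48.

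Among the nucleolar chaperones and scaffolds, 3 of 4 genes were not called, and the other, Npm3, had the largest change of the whole set. Npm3, a nucleoplasmin-family histone chaperone gene, fell 3.997-fold, from 181 to 45.2 FPKM (log2 ratio -1.999, q = 0.000187 in the authors' deposited table). It lies on chromosome 19 (45747734 to 45749591, minus strand, GRCm38) and shares its locus with Mgea5, which rose from 19.0 to 29.9 FPKM and does not overlap it, and with the antisense gene Gm15491 at 0.342 and 0.338 FPKM. Its relative Npm1, nucleophosmin, was the most highly expressed gene of the set, at 653 FPKM untreated and 643 FPKM treated, and was not called. Ncl, which encodes nucleolin, stood at 84.2 and 87.4 FPKM, and Nolc1, the snoRNP chaperone Nopp140, at 29.2 and 28.4 FPKM, both without a call. On the FPKM scale, which is set per length, Npm3 stood well above Ncl before treatment and well below it afterwards.

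Of the 7 snoRNP core genes 3 fell, 0 rose and 4 were not called, beside 20.9% of all tested genes that fell and 23.4% that rose. Box C/D snoRNPs add methyl groups to the sugar of ribosomal RNA, and Fbl, the gene of their methyltransferase fibrillarin, fell from 48.6 to 34.3 FPKM (log2 ratio -0.50). Its scaffold partners Nop56 (249 and 196 FPKM) and Nop58 (54.7 and 57.8 FPKM) were not called. Box H/ACA snoRNPs change uridine to pseudouridine. Of their 4 core genes Nhp2 fell 2.08-fold, from 235 to 113 FPKM, and Nop10 from 85.1 to 60.8 FPKM. Dkc1, the pseudouridine synthase dyskerin, stood at 58.5 and 54.8 FPKM and Gar1 at 50.8 and 54.8 FPKM, both without a call. After IFN-gamma Nop10, Dkc1 and Gar1 thus stood within 54.8 to 60.8 FPKM, with Nhp2 above them.

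The guide RNAs of these particles are themselves encoded inside some of the genes, and 16 annotated snoRNA genes lay inside 5 members (Ncl, Nop56, Nop58, Dkc1 and Wdr43) on the same strand (GENCODE M21, GRCm38). Of the 16, 7 were listed at 0 in both groups, 7 were tested by the authors' Cuffdiff run, and 0 were called or had an unadjusted p under 0.05 in the authors' deposited table. Snord110, inside Nop56, had 11.4 FPKM untreated and was listed at 0 with IFN-gamma (p = 0.234 in the authors' deposited table). Snord53, inside Wdr43, was listed at 12.3 and 7.36 FPKM (p = 0.705 in the authors' deposited table). Inside Nop58, Snord70 was listed at 0 untreated and 6.05 FPKM treated, and Gm26293 had 5.32 and 6.13 FPKM. Few fragments give such values in RNAs this short, and the levels of the guides were not resolved. For 4 of the hosts 1 named guide with both boxes is shown as GENCODE DNA letters, since such guides carry the boxes that Fbl, Nop56 and Nop58 assemble on. Box C (TGATGA) and the closing box D (CTGA) are in capitals.
Snord110 in Nop56, chr2:130275506-130275573, plus strand: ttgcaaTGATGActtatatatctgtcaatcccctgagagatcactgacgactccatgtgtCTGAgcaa
Snord82 in Ncl, chr1:86356261-86356330, minus strand: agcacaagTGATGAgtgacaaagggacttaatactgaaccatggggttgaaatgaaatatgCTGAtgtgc
Snord11 in Nop58, chr1:59704790-59704873, plus strand: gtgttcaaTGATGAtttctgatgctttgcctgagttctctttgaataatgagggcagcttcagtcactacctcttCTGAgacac
Snord92 in Wdr43, chr17:71631281-71631365, plus strand: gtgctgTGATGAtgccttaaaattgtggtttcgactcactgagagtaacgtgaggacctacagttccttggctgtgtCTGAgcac
Of these 4 guides only Snord110 had a listed value above 0.

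Of 7 small subunit assembly genes 4 rose, 1 fell and 2 were not called, beside 23.4% of all tested genes that rose and 20.9% that fell. The median log2 ratio of the 7 genes was 0.44. Noc4l, a factor of early 40S assembly, rose 1.81-fold, from 29.4 to 53.3 FPKM (q = 0.000187 in the authors' deposited table). It lies on chromosome 5 (110648418 to 110653417, minus strand, GRCm38) and had the largest rise of this role. Utp20, a very large scaffold protein of the small subunit processome, rose from 3.04 to 5.05 FPKM. Wdr43, the homologue of yeast Utp5, rose from 24.7 to 33.6 FPKM, and Rrp12, which in yeast takes part in the export of pre-ribosomes, from 5.58 to 7.89 FPKM. Utp20 and Rrp12 were thus among the least expressed genes of the set in both groups. Utp3 (19.9 and 19.3 FPKM) and Nop14 (24.1 and 27.3 FPKM), both processome factors, were not called.

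The fall in this role was that of Rrp9, a protein of the U3 snoRNP that guides the first cuts of the precursor. Rrp9 went from 46.7 to 18.6 FPKM, a 2.51-fold fall (q = 0.0181 in the authors' deposited table). The Rrp9 gene (chromosome 9, 106475963 to 106485424, plus strand) overlaps Parp3 (106470322 to 106476949, minus strand) over 987 bases in GENCODE M21. Parp3 rose from 25.5 to 116 FPKM in the same libraries. Strand is not recorded by the library kit, so that reads from the overlap could be given to either gene, and the part of this in the Rrp9 value was not tested. With a threshold of 0.01 Rrp9 was no longer called.

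Of 12 large subunit assembly genes 5 fell, 1 rose and 6 were not called, beside 20.9% of all tested genes that fell and 23.4% that rose. The median log2 ratio of the 12 genes was -0.24. Wdr74, a factor of late nucleolar 60S assembly, fell from 53.5 to 29.4 FPKM. Noc2l fell from 63.4 to 36.3 FPKM and Ebna1bp2, known in yeast as a factor of 27S precursor processing, from 86.3 to 51.8 FPKM. These falls had log2 ratios between -0.86 and -0.74. Noc2l overlaps Samd11, on the other strand, over 651 bases, and Samd11 fell from 10.9 to 6.18 FPKM (q = 0.0412 in the authors' deposited table). The part of this overlap in the Noc2l value was not tested. Pes1, Bop1 and Wdr12 encode the PeBoW complex, which acts in the maturation of the large subunit RNA. Pes1 fell 1.72-fold, from 128 to 74.4 FPKM, and Bop1 fell 1.35-fold, from 79.0 to 58.6 FPKM. Their partner Wdr12 stood at 24.7 and 29.4 FPKM and was not called. The Bop1 fall was near the threshold (q = 0.035 in the authors' deposited table), and its neighbour Mroh1, which overlaps it by 50 bases, rose from 27.1 to 55.2 FPKM.

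Noc3l, whose yeast homologue pairs with that of Noc2l, was the large subunit gene that rose, from 5.56 to 8.33 FPKM. Noc2l and Noc3l thus moved in opposite directions, and both calls carried q = 0.000187 in the authors' deposited table. This is the q of the smallest p among tested genes. In the set 8 genes that fell and 4 that rose share it, so it does not rank them. Noc3l lost its call where a change of at least 1.5-fold was required. The RNA methyltransferase genes Nop2 (66.3 and 58.6 FPKM) and Ftsj3 (37.0 and 45.6 FPKM), the helicase gene Ddx18 (42.9 and 42.0 FPKM), and the processing factor gene Rrp1 (46.3 and 49.9 FPKM) were not called. Nop16, a 60S assembly factor at 33.9 and 27.6 FPKM, was the uncalled gene nearest to the threshold (q = 0.0746 in the authors' deposited table).

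Of 6 genes of RNA polymerase I transcription 3 rose, 2 fell and 1 was not called, beside 23.4% of all tested genes that rose and 20.9% that fell. Polr1a, the largest and catalytic subunit, rose 2.41-fold, from 11.01 to 26.6 FPKM (log2 ratio 1.27, q = 0.000187 in the authors' deposited table), the largest rise of the set. Its gene spans bases 71909053 to 71984935 of chromosome 6 (plus strand, GRCm38). Polr1b, the other large core subunit, rose from 16.5 to 22.1 FPKM (q = 0.0224 in the authors' deposited table). Ddx21, a nucleolar helicase that couples transcription to processing, rose from 24.9 to 34.4 FPKM. Polr1c, an assembly subunit shared with RNA polymerase III, fell from 148 to 104 FPKM. Ubtf, the gene of the upstream binding factor that opens ribosomal DNA, fell from 53.01 to 38.6 FPKM. Rrn3, which recruits the polymerase to its promoter, stood at 24.5 and 25.6 FPKM and was not called. In untreated cells Polr1c stood far above Polr1a and Polr1b per length, and after IFN-gamma the gap between them was smaller.

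The direction of change tended to go with transcript length, in this set as in the whole table. The 13 genes that fell had a median length of 1611 nt for the longest listed transcript, the 16 without a call of 2649.5 nt and the 8 that rose of 4169 nt. Spearman's rho between log2 ratio and length was 0.59 over the 37 genes and 0.37 over 11425 tested genes of at least 1 FPKM in both groups, as a description across genes that share the same libraries. When these 11425 genes were divided into 10 bins by length, the median log2 ratio went from -0.41 in the bin of 918 to 1528.6 nt to 0.58 in the bin above 6416.8 nt. In the former bin 48.3% of genes fell and 13.6% rose, and in the latter 7.26% fell and 57.0% rose. The set had 6 genes in the former and 4 in the latter. The bin of the shortest genes, 57 to 918 nt, which holds Npm3, had a median of -0.38, with 27.6% of genes that fell and 5.26% that rose. Exceptions in the set were Ubtf, which fell with a transcript of 4692 nt, and Noc4l, which rose with 2075 nt. Whether this trend is a property of the RNA, the libraries or the FPKM calculation was not tested.

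**Figure D2:**
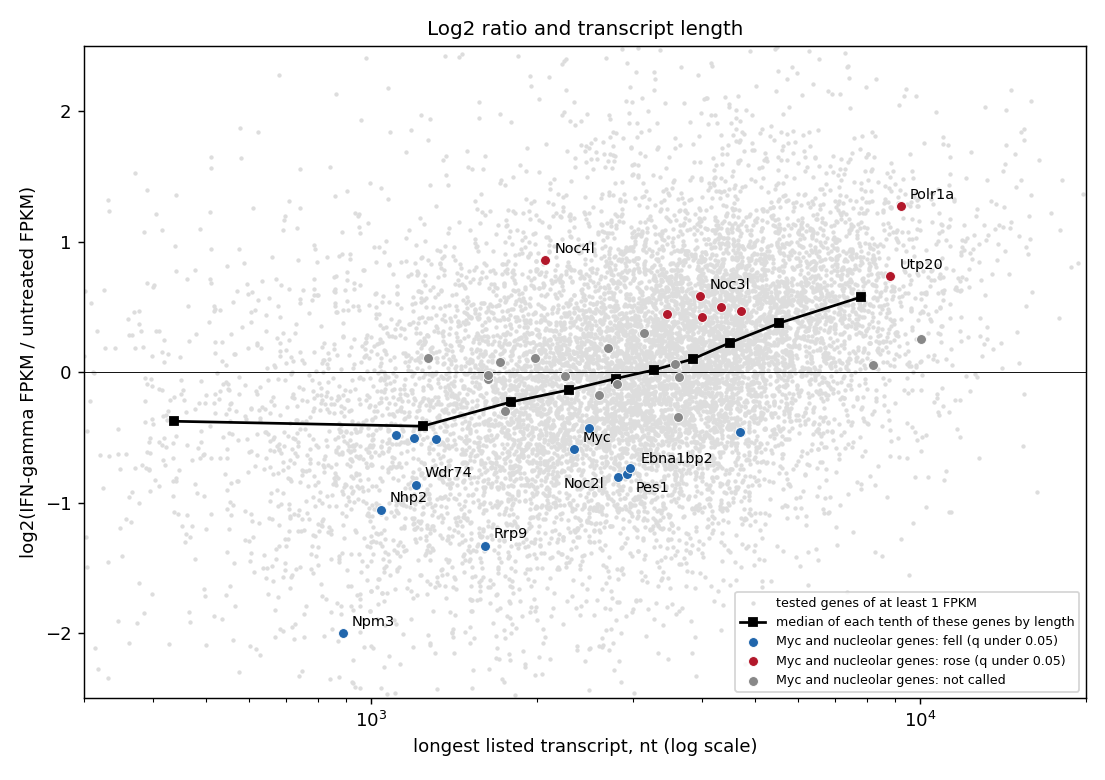
Log2 ratio of IFN-gamma over untreated FPKM against the longest listed transcript (log axis) for tested genes of at least 1 FPKM (grey), the median of each of 10 length bins (black line) and the set (coloured by the authors' test); genes beyond the axis limits are not drawn. Genes of the set that fell had a median length of 1611 nt and those that rose of 4169 nt, with overlap between them: Ubtf fell at 4692 nt and Noc4l rose at 2075 nt.

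With the median of the length bin subtracted, all 13 falls stayed below 0 and all 8 rises above 0, but several sizes changed. Npm3 went from -1.999 to -1.62, Rrp9 from -1.33 to -1.10 and Noc4l from 0.86 to 1.00 on the log2 scale. Myc went from -0.59 to -0.46. Polr1a went from 1.27 to 0.70 and Utp20, with a transcript of 8821 nt, from 0.73 to 0.16. The falls of the short genes Polr1c, Fbl and Nop10 went to -0.10, -0.089 and -0.069, so that they differed little from genes of their length. Where length was that of the longest protein-coding transcript, a choice made after seeing the data, Fbl and Nop10 stood at 0.053 and 0.073. Pes1, Noc2l and Ebna1bp2, with transcripts of 2813 to 2960 nt, kept ratios of -0.73, -0.76 and -0.69, and Ubtf went from -0.46 to -0.68. Of the genes without a call, Ncl went from 0.053 to -0.52, on a longest listed transcript of 8202 nt. Wdr12 went from 0.25 to -0.32, on 10012 nt. Gar1 moved upward, from 0.11 to 0.52, on 1271 nt. By role, the median went from 0.44 to 0.23 for small subunit genes and from -0.24 to -0.21 for large subunit genes. That of RNA polymerase I genes went from 0.24 to 0.10.

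**Figure D3:**
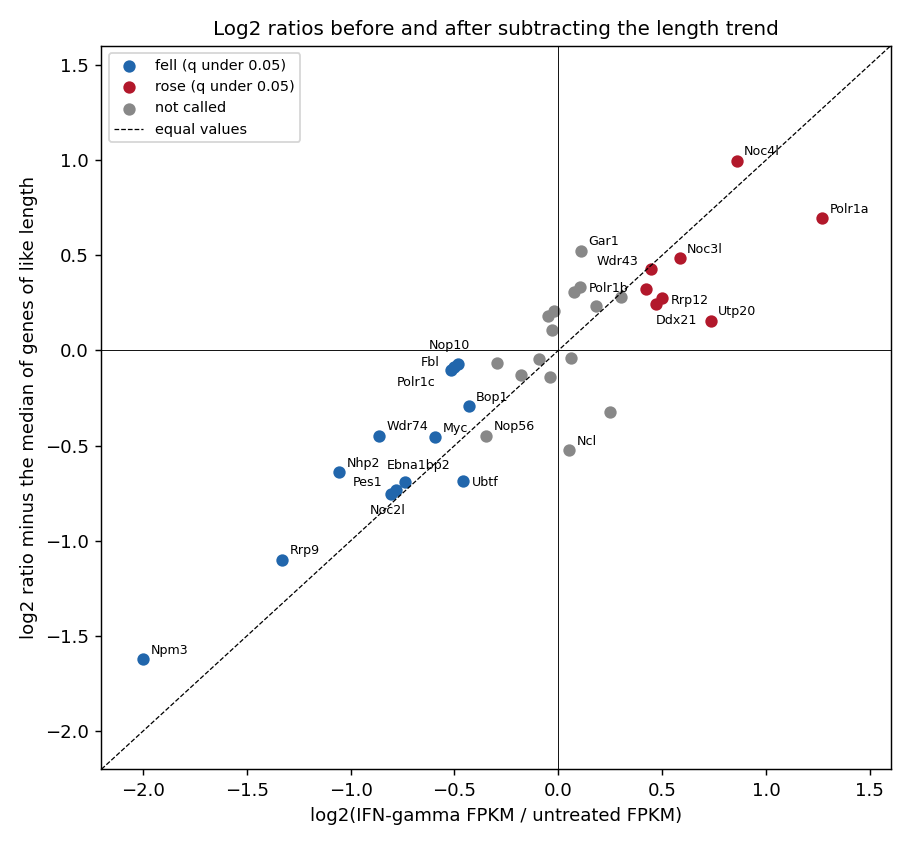
Log2 ratio of each gene of the set (horizontal) against the same ratio minus the median of tested genes in its length bin (vertical), coloured by the authors' test, with a dashed line of equal values. Npm3 and Rrp9 remain lowest at -1.62 and -1.10, Noc4l highest at 1.00, and Polr1c, Fbl and Nop10 lie near 0.

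Levels went with the direction too. Untreated FPKM of the genes that rose ran from 3.04 to 29.4, with a median of 13.7, and that of the genes that fell from 18.9 to 235, with a median of 79.0. Spearman's rho between log2 ratio and untreated FPKM was -0.68 over the set and -0.39 over the 11425 tested genes, and the untreated value enters both measures. Of the 37 genes 15 share their locus with another listed gene, among them 6 of the 13 that fell and 2 of the 8 that rose. Of all tested genes 48.2% share a locus. The authors' software divides fragments between such genes. Among the 22 genes without a shared locus 7 fell and 6 rose, beside 26.8% and 26.9% of tested genes without one.

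Further assembly factors also went both ways. Of 36 tested small subunit factors outside the set 9 rose, 7 fell and 20 were not called, with a median log2 ratio of 0.11. The largest changes among those of at least 5 FPKM were rises, those of the helicase gene Dhx37 (5.67 to 10.99 FPKM), Nol6 (7.26 to 13.2 FPKM) and the GTPase gene Bms1 (15.7 to 27.8 FPKM). Of 38 further large subunit factors 10 fell, 7 rose and 21 were not called, with a median of 0.017. Nle1 fell from 61.3 to 18.2 FPKM and Nip7 from 73.4 to 21.9 FPKM, while the helicase gene Ddx24 rose from 23.6 to 66.5 FPKM. Rises made up 25.0% and 18.4% of these lists and falls 19.4% and 26.3%, beside the background of 23.4% and 20.9%.

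In other lists of the pathway falls outnumbered rises, beside 20.9% of all tested genes that fell and 23.4% that rose. Of 15 further RNA polymerase I subunits and factors 9 fell and 1 rose, with a median log2 ratio of -0.63. Polr2k and Polr2f, small subunits shared by all 3 nuclear polymerases, fell (218 to 50.9 FPKM for Polr2k, 294 to 130 FPKM for Polr2f), as did Taf1d, a promoter selectivity factor (72.3 to 31.9 FPKM). The rise was that of Znrd1, a small subunit of RNA polymerase I, from 43.1 to 62.2 FPKM. Of 13 genes of the RNA exosome and its cofactors, which trim precursor RNA, 7 fell and 1 rose. Exosc8 fell from 105 to 38.8 FPKM, the cofactor gene C1d from 178 to 66.8 FPKM and Exosc2 from 59.1 to 27.1 FPKM, while the helicase gene Skiv2l2 rose from 24.4 to 39.5 FPKM. The median lengths of these lists were 1650 and 2296 nt, and their medians with the length trend taken out were -0.44 and -0.18.

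In a chosen list of 35 genes of growth and metabolism that Myc is known to induce, most fell. Of these 35 genes, all tested, 25 fell, 0 rose and 10 were not called, beside 20.9% of all tested genes that fell and 23.4% that rose. The median log2 ratio of this list was -0.66, and -0.63 with the length trend taken out. Ldha, lactate dehydrogenase, fell from 1689 to 462 FPKM, the prohibitin gene Phb from 577 to 203 FPKM and Shmt1, an enzyme of one-carbon metabolism, from 23.7 to 9.36 FPKM. Of 85 tested cytosolic ribosomal protein genes, whose products are assembled by the nucleolar factors, 59 fell, 0 rose and 26 were not called. Their median log2 ratio was -0.65, on a median transcript of 946 nt, and -0.34 with the length trend taken out. The largest falls were those of Rps27l (2490 to 506 FPKM), Rps27a (3762 to 816 FPKM) and Rps14 (5559 to 1362 FPKM). The median untreated level was 73.1 FPKM for the growth genes and 1339 FPKM for the ribosomal protein genes. It was 13.7 FPKM for the 11425 tested genes of at least 1 FPKM in both groups. Over those genes the log2 ratio also went down with untreated FPKM (Spearman's rho -0.39), and this trend was not taken out. Both lists were chosen with earlier results of these data known, and their difference from the nucleolar set was not tested.

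**Figure D4:**
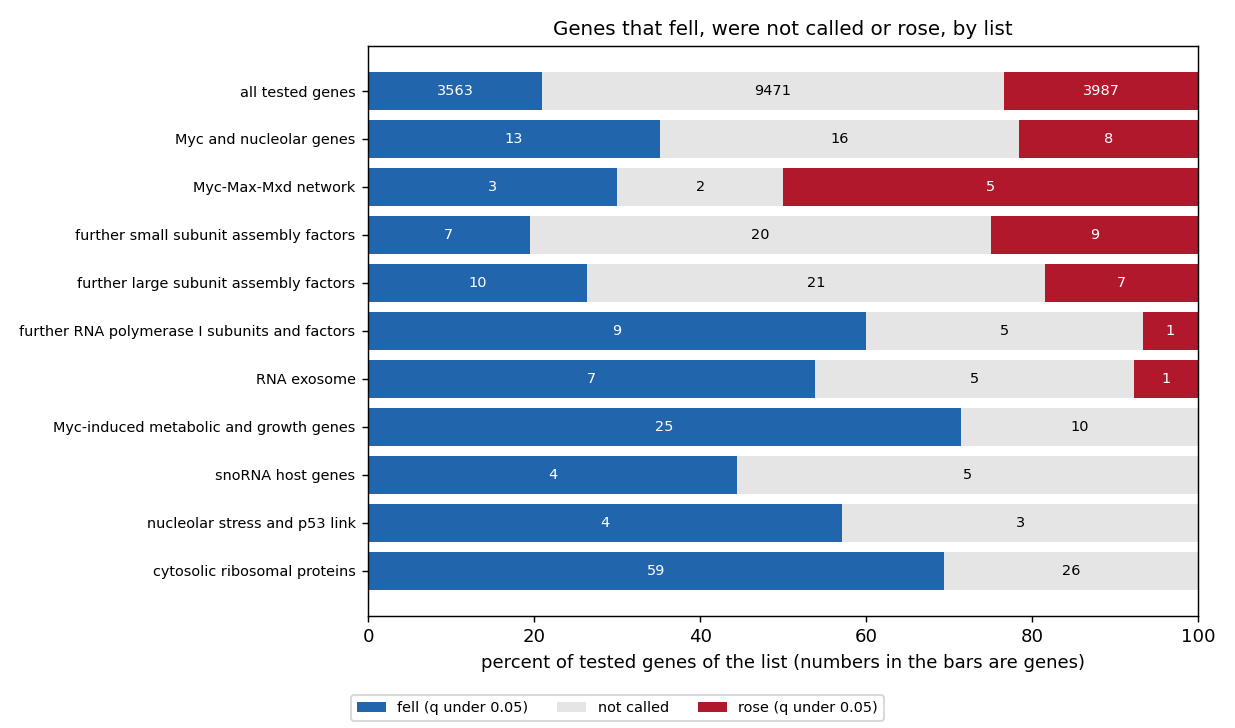
Percent of tested genes that fell, were not called or rose (horizontal, with the number of genes in each bar) for all tested genes, the Myc and nucleolar genes and each further list. The set had 13 falls and 8 rises, while the Myc-induced growth genes and the cytosolic ribosomal proteins had 25 and 59 falls and 0 rises.

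The labelled cell type and treatment were visible in the same table. All 7 melanocyte markers were expressed in both groups, from 78.7 FPKM for Mitf to 2871 FPKM for Pmel in untreated cells. Of these 4 rose (Sox10, Tyrp1, Mlana and Mitf), Tyr fell from 142 to 107 FPKM, and Pmel and Dct were not called. The 11 markers of leukocytes, endothelium, fibroblasts and epithelium stood at 0.709 FPKM or less. Of the 4 tested among them Col1a2 fell from 0.709 to 0.131 FPKM and Itgam from 0.141 to 0.013 FPKM, and their part in the results above was not tested. Irf1, which responds to IFN-gamma, rose from 10.2 to 482 FPKM. In bulk RNA a change in the share of cells in a state, such as cycling, and a change in RNA per cell cannot be told apart.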

How the data were processed

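The deposited table held 1 FPKM per gene and group with the 3 libraries of each group reduced by the authors, and the authors' p-value, q-value and test score, per the file headers. The submitters' processing notes list GRCm38 as the build and name Cuffdiff, Cufflinks 2.2.1 and TopHat2 2.0.11. Their settings, the gene annotation and how library spread entered the p-values are not stated there. Depth is unknown. A title line of the sheet speaks of infected cells, while its sample cells read B16 and IFN, and these were followed.

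All 37 genes had 1 protein-coding row and were tested. Log2 ratios were recomputed from FPKM without a pseudocount, and calls are the authors' q under 0.05. No new test was made: the library fit was planned only for tables with a value per library. Lengths, coordinates and snoRNA genes came from GENCODE M21 (GRCm38), the longest listed transcript giving the length (found for 98.9% of tested genes). Length bins (10) used tested genes of at least 1 FPKM in both groups. Of these steps, the subtraction of the length trend was tested on simulated data, as was the adjustment of p-values used in an alternative below. Alternatives were other thresholds, pseudocounts, centring, length bins and locus filters. Genes of further lists were named by rule: up to 3 called genes of at least 5 FPKM with the largest ratio, and the called genes of the other direction where 3 or fewer. All genes of the Myc network were named, as were coding neighbours in a shared locus that changed. The members and lists were chosen with earlier results of these data known. Python 3.11.15, pandas 2.3.3, scipy 1.17.1 and matplotlib 3.10.9 were used.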

Additional observations from a re-analysis of the deposited data

How the results depend on the processing

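With q under 0.01, 11 genes of the set fell and 7 rose, and Bop1, Rrp9 and Polr1b lost their call. With a change of at least 1.5-fold required, 8 fell and 3 rose. With p-values adjusted only among genes reaching 1 FPKM in a group, all 37 calls were as before, beside 25.8% and 28.4% of genes called lower and higher. Without genes that share a locus 7 of 22 fell and 6 rose. The median log2 ratio of the set, -0.040, was -0.076 relative to the median of tested genes of at least 1 FPKM in both groups. It was -0.065 relative to genes of like length and -0.14 among the 30 genes with a mean FPKM of at least 20. The length-adjusted median was -0.020 with 20 bins and -0.0028 with protein-coding transcript lengths, both added after seeing the data, and in the latter Fbl and Nop10 turned to 0.053 and 0.073. Pseudocounts of 0.1 and 1 FPKM left the median at -0.04. Leaving out single libraries and a fit with a replicate block were not run. No paired analysis was possible because the table holds no value per library. Without library values no error of a level is known, and values of low or short genes are the least certain.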

Other observations

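The long non-coding hosts of snoRNAs fell or were not called. Of 9 tested host genes 4 fell, 0 rose and 5 were not called, beside 20.9% of all tested genes that fell and 23.4% that rose. Their median log2 ratio was -1.10, and -0.69 with the length trend taken out over the 7 hosts with a listed length. These lengths include 139 nt for Snhg7 and 183 nt for Snhg9, and whether they cover the whole host transcripts was not tested. Snhg3 fell from 279 to 43.5 FPKM, Snhg1 from 35.4 to 12.7 FPKM and Snhg6 from 292 to 134 FPKM, while Gas5 stood at 565 and 547 FPKM. Gas5 and the fourth host that fell, Snhg5 (56.3 to 26.2 FPKM), were named after their values were seen. All 9 share their locus with other genes, mostly the snoRNAs they carry.

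Genes that link a stressed nucleolus to p53 fell in part. Rpl11 and Rpl5, whose free proteins bind Mdm2, fell (1919.6 to 554 FPKM for Rpl11, 522 to 373 FPKM for Rpl5). Cdkn1a, the CDK inhibitor induced by p53, fell from 166 to 68.4 FPKM. Gltscr2, a nucleolar binder of Rpl5 and Rpl11 products, fell from 59.3 to 46.8 FPKM. Trp53 (43.3 and 45.6 FPKM), Mdm2 (30.5 and 33.5 FPKM) and Mybbp1a (89.6 and 75.4 FPKM), which were picked out once their values were known, were not called. Cdkn2a, also on this list, was listed at 0 FPKM untreated and 0.0126 FPKM with IFN-gamma and was not tested. Of 7 tested genes 4 fell and 0 rose, beside the same background. With a change of at least 1.5-fold required 2 fell, beside 15.6% of all tested genes. Rpl11 and Rpl5 are also counted among the cytosolic ribosomal protein genes above.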
